A study of Mus musculus with 8 samples.

Results

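The 36 genes described here are the classical interferon-induced genes, from the transcription factors of the response to the antiviral proteins it makes, measured in the mouse esophagus with and without excess IL-33. They were taken by name from a list that was chosen with earlier results of these data known. All 36 were found among the 49315 gene identifiers of the count table and had enough counts to be tested. RNA of whole esophagus, enriched for polyadenylated transcripts, was sequenced from 4 EoE33 mice, male, 8 weeks old and carrying a transgene that overexpresses IL-33 in the esophagus, and from 4 wild type littermates of the same sex and age. Both groups carry the strain label C57BL/6J. The title of the series places the overexpression in the epithelium. The promoter that drives the transgene is not given in the sources used here, and the counts of Il33 do not separate the transgene from the mouse's own gene.

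Interferons are cytokines, and cells release those of type I and type III on sensing viral or bacterial nucleic acids. Type I and type III interferons act through a complex that holds STAT2 and IRF9 and binds the interferon-stimulated response element of its target promoters, whereas interferon gamma acts mainly through the gamma-activated site. Several of the induced genes can also be switched on without interferon, by IRF1, by IRF3 or by other inflammatory signals, so their RNA levels alone do not name the stimulus.

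Promoter sequence is shown for 7 members, chosen to cover genes that were higher, lower and not called in EoE33 mice. All of them but Oas3 hold the run of bases marked below, so they do not show its share among the members. Promoters of 26 of the 36 genes were found by symbol in RefSeq, each 250 bases before to 50 bases after a transcript start in GRCm38.p6. Capitals mark the run of 8 bases that the most members share, AAACTGAA or, read from the other strand, TTCAGTTT. Each line holds 140 bases, ends at the base before the RefSeq start and reads 5′ to 3′ on the strand of the gene.
Oas1a (higher in EoE33, chr5:120907526-120907665, minus strand): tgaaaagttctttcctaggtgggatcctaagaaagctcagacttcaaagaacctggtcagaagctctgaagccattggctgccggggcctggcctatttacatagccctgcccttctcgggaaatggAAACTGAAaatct
Oas1g (higher in EoE33, chr5:120887614-120887753, minus strand): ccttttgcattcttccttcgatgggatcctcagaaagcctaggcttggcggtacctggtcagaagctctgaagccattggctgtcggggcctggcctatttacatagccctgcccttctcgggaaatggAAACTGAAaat
Oas3 (higher in EoE33, chr5:120777660-120777799, minus strand): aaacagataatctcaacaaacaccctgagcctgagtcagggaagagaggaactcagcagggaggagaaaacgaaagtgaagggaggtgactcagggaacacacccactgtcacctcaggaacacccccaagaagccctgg
Ifit1 (not called, chr19:34640749-34640888, plus strand): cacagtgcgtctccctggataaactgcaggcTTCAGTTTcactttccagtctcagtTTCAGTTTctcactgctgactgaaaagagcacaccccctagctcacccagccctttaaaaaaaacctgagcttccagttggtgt
Ifit3 (lower in EoE33, chr19:34583389-34583528, plus strand): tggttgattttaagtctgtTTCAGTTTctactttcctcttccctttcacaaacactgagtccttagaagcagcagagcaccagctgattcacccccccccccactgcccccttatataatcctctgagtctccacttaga
Isg15 (not called, chr4:156200819-156200958, minus strand): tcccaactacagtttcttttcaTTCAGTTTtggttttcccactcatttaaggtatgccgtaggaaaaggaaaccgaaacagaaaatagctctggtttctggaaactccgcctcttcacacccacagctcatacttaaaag
Igtp (lower in EoE33, chr11:58199416-58199555, plus strand): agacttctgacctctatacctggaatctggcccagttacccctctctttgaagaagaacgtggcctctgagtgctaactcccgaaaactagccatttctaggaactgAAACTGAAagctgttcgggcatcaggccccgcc

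The run was found in 13 of the 26 genes, 50%, and in 2.07% of the 27025 genes with a promoter in the same RefSeq table, searching both strands of the whole windows. It was picked from all runs of 8 bases because it occurs in the most of these promoters, so its share among them is a description. Of the genes holding it, 5 were among the 12 that were higher in EoE33, 3 among the 5 that were lower and 5 among the 9 that passed in neither direction. Oas1a and Oas1g hold it next to their starts, and their promoters share an unbroken run of 73 bases. Ifit1 and Ifit3 share at most 13 bases in a row and Oasl1 and Oasl2 at most 9. Oas3, which rose, does not hold the run in its window. These are matches of letters and not measured binding sites.

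Of the 36 genes, 17 were higher and 8 lower in EoE33 than in wild type esophagus at an adjusted p under 0.05 (edgeR quasi-likelihood test, Benjamini-Hochberg over all genes), and 11 passed in neither direction. Among all 16760 genes tested, 63.4% were called, 31.3% higher and 32.1% lower, so the 69.4% of members called is close to what the whole table gave. The 47.2% of members that were higher and the 22.2% that were lower stand beside those 2 shares. The median log2 fold change was 0.41 over the 36 genes and -0.01 over all genes tested. A change of at least 2-fold was found for 11 members that were higher and for 1 that was lower, against 12.3% of all genes higher and 14.9% lower. The groups of 4 did not overlap for 66.7% of the members, 17 above and 7 below wild type, against 59.5% of all genes, 29.6% above and 29.9% below.

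**Figure D1:**
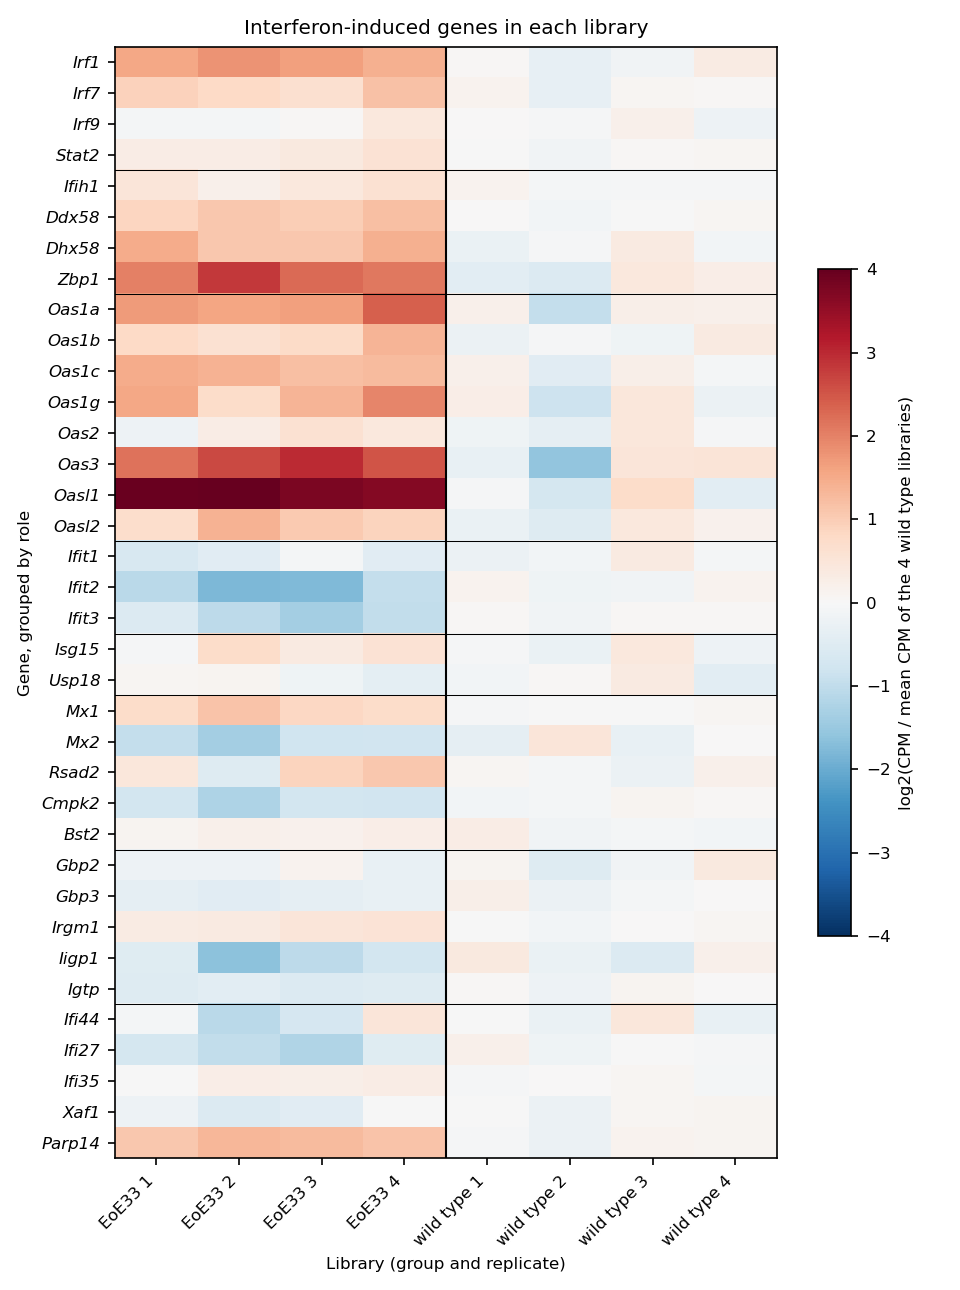
Level of each of the 36 interferon-induced genes (rows, by role) in each library (columns, 4 EoE33 then 4 wild type), as log2 of its CPM over the mean CPM of the wild type libraries. Red is above and blue below that mean. The OAS genes other than Oas2 and the 4 sensors are red in all EoE33 libraries, and Ifit2 and Ifit3 are blue in all of them.

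Levels are given as CPM, the count of a gene per 1e6 of the library size as scaled by TMM, and for comparison between genes as TPM, which also divides by exon length. Values are listed in the order of replicates 1 to 4, which carries no ranking. Il33 had 355, 393, 370 and 367 CPM in EoE33 libraries, against 123, 128, 165 and 99.8 CPM in wild type libraries, a log2 fold change of 1.53 ± 0.14 (standard error, adjusted p = 1.52e-05). No wild type library reached the level of the lowest EoE33 library. In units of 1e6 counts, EoE33 libraries had a depth of 20.4 ± 1.93 and wild type libraries one of 23.2 ± 0.81 (SD, n = 4 in each group).

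Markers of other cell types also differed, and since the whole tissue was sequenced, a change in the number of cells of a type and a change of RNA per cell cannot be told apart. The 7 squamous epithelium markers were abundant in both groups, with sums of 32600 to 49300 CPM in EoE33 and 51700 to 91000 CPM in wild type. Of them 4 were higher in EoE33 (Krt5, Krt14, Trp63 and Dsg3) and 2 lower (Krt4 and Krt13). All counts of markers called here stand beside 31.3% of all genes tested that were higher and 32.1% that were lower. All 5 leukocyte markers were higher in EoE33, with sums of 286 to 388 CPM in EoE33 and 85.7 to 179 CPM in wild type. All 7 macrophage markers were higher too, with sums of 422 to 552 CPM in EoE33 and 211 to 355 CPM in wild type. For Adgre1 (adjusted p = 0.0387) and Csf1r (adjusted p = 0.0236, edgeR for both) the groups overlapped. Eosinophil markers summed to 8.55 to 13.6 CPM in EoE33 and 0.176 to 1.35 CPM in wild type, and neutrophil markers to 74.4 to 163 CPM in EoE33 and 10.3 to 15.3 CPM in wild type. Of the 7 neutrophil markers 5 could be tested and 4 were higher, while Camp did not pass (log2 fold change -0.51). All 7 skeletal muscle markers were lower, with sums of 7320 to 9970 CPM in EoE33 and 28100 to 29500 CPM in wild type. Of the 5 smooth muscle markers 4 were lower, and Cnn1 did not pass. Their sums were 1890 to 2100 CPM in EoE33 and 3150 to 6280 CPM in wild type, a wide range. Of the 5 endothelial markers 3 were lower (Cdh5, Kdr and Tek), and Pecam1 and Emcn did not pass. Endothelial sums were 150 to 168 CPM in EoE33 and 175 to 251 CPM in wild type. Of the 6 plasmacytoid dendritic cell markers, cells known for their output of type I interferon, 5 could be tested and 2 were lower, Cox6a2 and Tcf4, which other tissues also express. Siglech and Ccr9, the more specific of that list, passed in neither direction. Of the 8 T and NK cell markers, whose cells make interferon gamma, 6 could be tested and 2 were higher, Cd3g and Gzmb. Cd3e, Cd3d, Cd8a and Cd4 did not pass. The NK cell markers Ncr1 (5 counts in EoE33, 13 in wild type) and Klrb1c (16 and 20) were not tested. The sum was 7.78 to 11.2 CPM in EoE33 and 1.19 to 7.67 CPM in wild type. Liver and airway transcripts were present in wild type replicates 1 and 3, up to 140 and 440 CPM in sum. No marker was at 0 in every library, and the part of any of these cells in the results below was not tested.

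Among the transcription factors, Irf1 and Irf7 were higher in every EoE33 library than in any wild type library. Irf1, which acts downstream of interferon gamma and of NF-kappaB (chromosome 11, 53770014 to 53778374, GRCm38 here and below), had 49.1, 57.9, 52.6 and 45.5 CPM in EoE33, against 17.4, 13.3, 15.1 and 21.2 CPM in wild type. Its rise was 3.06-fold, a log2 fold change of 1.61 ± 0.14 (adjusted p = 1.46e-05). Irf7, the factor that amplifies type I interferon production (chromosome 7, 141262706 to 141266481), had 10.1, 9.36, 8.33 and 12.2 CPM in EoE33, against 5.9, 4.3, 5.67 and 5.57 CPM in wild type. It was 1.86-fold higher (log2 fold change 0.9 ± 0.15, adjusted p = 0.000795). The gene shares a small stretch of exon with Phrf1 on the opposite strand, and the use of strand in counting is not given.

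The 2 members that belong to the type I response complex moved little. Stat2 (chromosome 10, 128270559 to 128292849) had 31.7, 31.3, 33.4 and 38.4 CPM in EoE33, against 25.3, 23.4, 26.8 and 27.1 CPM in wild type, a 1.31-fold rise (log2 fold change 0.39 ± 0.08, adjusted p = 0.00299). Its groups did not overlap. Irf9 (chromosome 14, 55603571 to 55610030), the DNA-binding subunit, had 32.3, 31.7, 35 and 45.2 CPM in EoE33, against 34.2, 32.6, 39 and 29.6 CPM in wild type. The groups overlap, EoE33 replicate 4 being the highest of all 8, and the log2 fold change of 0.09 with a 95% interval from -0.2 to 0.38 did not pass (adjusted p = 0.555).

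All 4 nucleic acid sensors were higher, none of them with overlapping groups. Over all genes, 31.3% were higher and 29.6% lay above wild type without overlap. Ddx58, which encodes the RNA sensor RIG-I (chromosome 4, 40203773 to 40239828), had 27.6, 31.7, 29.7 and 35 CPM in EoE33, against 15.3, 14.1, 15 and 16 CPM in wild type, a 2.06-fold rise (log2 fold change 1.04 ± 0.09, adjusted p = 1.09e-05). Ifih1, which encodes the sensor of long double-stranded RNA MDA5, had 22.2, 18.3, 21.3 and 24.3 CPM in EoE33, against 17.4, 15.2, 15.4 and 15.5 CPM in wild type. Its rise was 1.36-fold (log2 fold change 0.44 ± 0.1, adjusted p = 0.00361), the smallest of the sensors. Dhx58, which encodes LGP2, a regulator of both, averaged 6.55 ± 0.977 CPM in EoE33 and 2.7 ± 0.511 CPM in wild type (SD, 4 libraries a group), with a log2 fold change of 1.28 ± 0.18 (adjusted p = 0.000218).

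Zbp1, a sensor of left-handed double helices that can start necroptosis (chromosome 2, 173206612 to 173218923), rose the most of them. It had 7.73, 13.6, 9.19 and 8.19 CPM in EoE33, against 1.44, 1.32, 2.58 and 2.31 CPM in wild type. EoE33 replicate 2 was the highest, and the lowest EoE33 library still lay far above the highest wild type library. The rise was 5.04-fold (log2 fold change 2.33 ± 0.27, adjusted p = 7.6e-05).

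The OAS family gave the largest rises. The active enzymes of the family make 2′-5′-linked oligoadenylates on binding double-stranded RNA, but not every member has this activity. Of 8 members 7 were higher and none lower, with a median log2 fold change of 1.4. The shares over all genes were 31.3% higher and 32.1% lower. Oasl1 (chromosome 5, 114923240 to 114937915), which lacks the enzymatic activity and in mice restrains the translation of Irf7, had 44.7, 45.9, 39.1 and 36.7 CPM in EoE33, against 2.76, 1.76, 4.78 and 2.14 CPM in wild type. The 4 EoE33 libraries stand close together and far from wild type. The gene was 14.5-fold higher (log2 fold change 3.86 ± 0.28, adjusted p = 6.72e-06).

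Oas3 (chromosome 5, 120753098 to 120777661) had 4.73, 6.61, 8.37 and 5.99 CPM in EoE33, against 0.849, 0.351, 1.48 and 1.5 CPM in wild type, a 6.11-fold rise (log2 fold change 2.61 ± 0.38, adjusted p = 0.000322). Oas1a (chromosome 5, 120896256 to 120907521) had 6.35, 5.85, 6.13 and 10.3 CPM in EoE33, against 2.29, 1.01, 2.33 and 2.27 CPM in wild type, a 3.61-fold rise (log2 fold change 1.85 ± 0.29, adjusted p = 0.000484). For Oas1a, 1 library in each group stands apart, EoE33 replicate 4 above the others and wild type replicate 2 below them. Oas1g had a log2 fold change of 1.46 ± 0.34 (adjusted p = 0.00464), Oas1c one of 1.33 ± 0.19 (adjusted p = 0.000291) and Oas1b one of 0.91 ± 0.22 (adjusted p = 0.00595). The call of Oas1b was lost without wild type replicates 1 and 3 (log2 fold change 0.73, adjusted p = 0.0731). In the C57BL/6 background Oas1b carries a premature stop codon, so its RNA does not stand for a full-length protein. Of the 150-base windows in the exons of Oas1a, 32.4% also occur in Oas1g, and 30.1% the other way, so that counts of this pair are uncertain where reads could be split between them.

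Oasl2 (chromosome 5, 114896936 to 114912234), next to Oasl1 and enzymatically active in mice, had 18.2, 29.4, 23.1 and 21 CPM in EoE33, against 9.42, 7.99, 15.2 and 12.6 CPM in wild type, a 2.02-fold rise (log2 fold change 1.02 ± 0.22, adjusted p = 0.00309). Oas2 had 6.02, 8.54, 10.6 and 9.24 CPM in EoE33, against 6.11, 5.36, 9.44 and 6.6 CPM in wild type. Its groups overlap and its log2 fold change of 0.32, with a 95% interval from -0.17 to 0.81, did not pass (adjusted p = 0.22). Oas2, Oas3, Oas1c, Oas1b, Oas1g and Oas1a lie within 177 kb of chromosome 5.

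The make-up of the family differed as well. Summed over the 8 genes, the level per length was 86.7 ± 3.03 TPM in EoE33 and 21.3 ± 5.1 TPM in wild type (SD, 4 libraries a group). Oasl1 made up 53.1% ± 5.45 of that sum in EoE33 and 14.5% ± 3.51 in wild type. By mean TPM among the 36 members it ranked 2 in EoE33, at 46 TPM, and 25 in wild type, at 3.15 TPM. Oas3, in spite of its fold change, stayed low, at 2.64 TPM in EoE33 and 0.433 TPM in wild type.

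Proteins of the IFIT family bind viral RNA or block its translation. Their genes are usually among the most inducible by type I interferon. Of the 3 members 2 were lower and none higher, where 32.1% of all genes were lower and 31.3% higher. Ifit2 (chromosome 19, 34550694 to 34576419) had 4.11, 2.52, 2.59 and 4.49 CPM in EoE33, against 9.72, 7.73, 7.91 and 9.64 CPM in wild type. Every EoE33 library was below every wild type library, a 2.55-fold fall (log2 fold change -1.35 ± 0.21, adjusted p = 0.000455). Ifit3 (chromosome 19, 34583531 to 34588731) had 6.06, 4.27, 3.45 and 4.49 CPM in EoE33, against 9.17, 8.08, 9.22 and 9.12 CPM in wild type, a 1.95-fold fall (log2 fold change -0.96 ± 0.17, adjusted p = 0.000914). Its near-copy Ifit3b, with which it shares 18.5% of its windows, had a log2 fold change of -0.94 ± 0.18 (adjusted p = 0.00151).

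Ifit1 (chromosome 19, 34640871 to 34650009) had 2.67, 3.04, 3.93 and 3.05 CPM in EoE33, against 3.56, 3.87, 5.37 and 3.94 CPM in wild type. EoE33 replicate 3 overlaps the wild type range, and the log2 fold change of -0.4, with a 95% interval from -0.82 to 0.03, did not pass (adjusted p = 0.0902). The 3 members lie within 99.3 kb, and together they had 13.5 ± 1.6 TPM in EoE33 and 25.9 ± 2.35 TPM in wild type (SD, 4 libraries a group). Between them lies Ifit1bl1, a relative of Ifit1, which had 8.21, 35.6, 9.1 and 2.3 CPM in EoE33, against 0.255, 0.483, 0.465 and 0.343 CPM in wild type. All EoE33 libraries were higher, over a wide range (log2 fold change 5.13 ± 0.93, adjusted p = 0.00184).

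**Figure D2:**
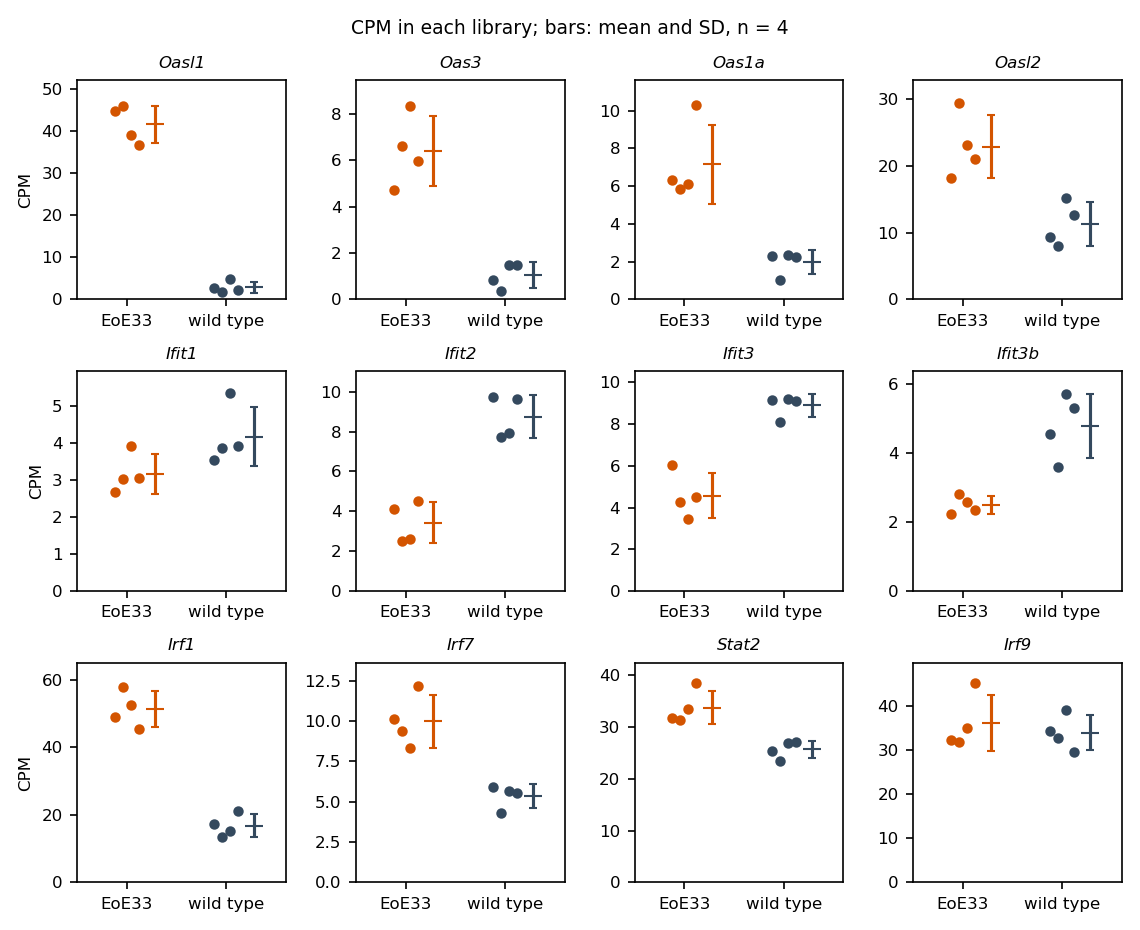
CPM of OAS genes (upper row), IFIT genes (middle row) and transcription factors (lower row), 1 panel a gene, with EoE33 left and wild type right. Points are libraries and bars the mean and SD (n = 4 each). Oasl1 is far above wild type in all EoE33 libraries, Ifit2 and Ifit3 below it in all, and the Irf9 points of the groups overlap.

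ISG15, a ubiquitin-like protein, and its protease USP18, which also damps the type I receptor, are standard readouts of type I interferon. Neither passed. Isg15 had 3.01, 5.15, 3.93 and 4.64 CPM in EoE33, against 3.01, 2.55, 4.15 and 2.66 CPM in wild type (log2 fold change 0.43 ± 0.22, adjusted p = 0.118). Usp18 had 5.92, 6.15, 4.96 and 4.29 CPM in EoE33, against 5.22, 5.84, 7.28 and 4.24 CPM in wild type (log2 fold change -0.08 ± 0.19, adjusted p = 0.718). The groups overlap for both. Isg15 passed when EoE33 replicate 1 was left out (0.56, adjusted p = 0.0484) and when wild type replicate 3 was left out (0.6, adjusted p = 0.0382).

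Among the other antiviral effectors, neighbours moved apart. Mx1, a GTPase that blocks influenza virus in mice but is inactive in the C57BL/6 background, had 2.96, 3.98, 3.19 and 2.95 CPM in EoE33, against 1.74, 1.76, 1.78 and 1.88 CPM in wild type, a 1.82-fold rise (log2 fold change 0.86 ± 0.16, adjusted p = 0.00131). Mx2, within 114 kb of it on chromosome 16, had 0.621, 0.468, 0.69 and 0.699 CPM in EoE33, against 0.934, 1.67, 0.973 and 1.2 CPM in wild type, a 1.9-fold fall (log2 fold change -0.93 ± 0.27, adjusted p = 0.0133). Both had groups that did not overlap. Cmpk2, a mitochondrial nucleotide kinase next to Rsad2 on chromosome 12, had 3.25, 2.28, 3.24 and 3.2 CPM in EoE33, against 5.05, 5.14, 5.88 and 5.61 CPM in wild type, a 1.81-fold fall (log2 fold change -0.85 ± 0.15, adjusted p = 0.00104).

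Rsad2, which encodes viperin, an enzyme that makes a chain terminator of viral RNA synthesis, had 3.77, 1.93, 5.13 and 5.79 CPM in EoE33, against 2.93, 2.64, 2.33 and 3.17 CPM in wild type. EoE33 replicate 2 was the lowest library of all and the other 3 the highest. The log2 fold change of 0.59 ± 0.3 did not pass (adjusted p = 0.114), and without EoE33 replicate 2 it was 0.83 and passed (adjusted p = 0.00635). Bst2, which encodes tetherin, averaged 12.7 ± 0.574 CPM in EoE33 and 11.1 ± 1.74 CPM in wild type (SD, 4 libraries a group) and did not pass (log2 fold change 0.19 ± 0.12, adjusted p = 0.175). Leaving out wild type replicate 1 made Bst2 pass (0.31, adjusted p = 0.0227).

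Guanylate-binding proteins and immunity-related GTPases attack the vacuoles of intracellular pathogens and are best known as targets of interferon gamma. Of the 5 members 3 were lower and 1 higher, with a median log2 fold change of -0.36. Over all genes, 32.1% were lower and 31.3% higher. Igtp, which encodes IRGM3 (chromosome 11, 58199556 to 58207591), had 5.82, 6.2, 5.74 and 5.79 CPM in EoE33, against 8.61, 7.33, 9.05 and 8.4 CPM in wild type, a 1.42-fold fall (log2 fold change -0.5 ± 0.11, adjusted p = 0.00271). Irgm1, a regulator of the other IRG proteins (chromosome 11, 48861968 to 48871683), had 19.7, 20.4, 22.1 and 23.1 CPM in EoE33, against 15.7, 14.7, 16 and 16.7 CPM in wild type, a 1.35-fold rise (log2 fold change 0.43 ± 0.08, adjusted p = 0.00126). In neither gene did the groups overlap. Igtp shares 8.01% of its exon bases with Irgm2 on the same strand, so reads from that stretch are uncertain.

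Iigp1, an effector IRG protein, had 6.11, 2.75, 4.1 and 5.09 CPM in EoE33, against 11.2, 7.12, 5.88 and 9.85 CPM in wild type. EoE33 replicate 1 lies above wild type replicate 3, so the groups overlap, while the fitted fall was 1.88-fold (log2 fold change -0.91 ± 0.28, adjusted p = 0.0165). Gbp3 had 8.69, 8.25, 8.72 and 9.14 CPM in EoE33, against 13.3, 9.53, 10.6 and 11.4 CPM in wild type (log2 fold change -0.36 ± 0.12, adjusted p = 0.0207). The call of Gbp3 was lost without wild type replicate 1 (-0.28, adjusted p = 0.0591) and without a filter on low counts (adjusted p = 0.051). Gbp2 averaged 17.2 ± 2.31 CPM in EoE33 and 18.8 ± 4.95 CPM in wild type (SD, 4 libraries a group) and did not pass (log2 fold change -0.13 ± 0.19, adjusted p = 0.555). The summed level of the 5 was 48.8 ± 5 TPM in EoE33 and 56.2 ± 11 TPM in wild type.

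The remaining 5 genes moved in both directions. Parp14, an ADP-ribosyltransferase that also serves as a cofactor of STAT6 (chromosome 16, 35832874 to 35871544), had 36.1, 43.1, 41.4 and 37.8 CPM in EoE33, against 16.5, 14.6, 18.9 and 18.4 CPM in wild type, a 2.32-fold rise (log2 fold change 1.21 ± 0.1, adjusted p = 8.66e-06). Ifi27, a mitochondrial protein gene and the most abundant member per length in both groups at 96.2 TPM in EoE33 and 172 TPM in wild type, had 53.4, 43.4, 37.9 and 61.9 CPM in EoE33, against 99.6, 77, 86.7 and 84.1 CPM in wild type. It fell 1.77-fold (log2 fold change -0.82 ± 0.15, adjusted p = 0.00123), and the groups of neither gene overlap.

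Ifi35 averaged 20.6 ± 2 CPM in EoE33 and 17.9 ± 0.993 CPM in wild type, Xaf1, a pro-apoptotic factor, 5.08 ± 0.863 CPM in EoE33 and 6.21 ± 0.638 CPM in wild type, and Ifi44 1.17 ± 0.552 CPM in EoE33 and 1.37 ± 0.346 CPM in wild type (SD, 4 libraries a group). None of these passed, with adjusted p of 0.0726 for Ifi35, 0.125 for Xaf1 and 0.599 for Ifi44. Ifi35 passed without EoE33 replicate 1 (log2 fold change 0.27, adjusted p = 0.0144).

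**Figure D3:**
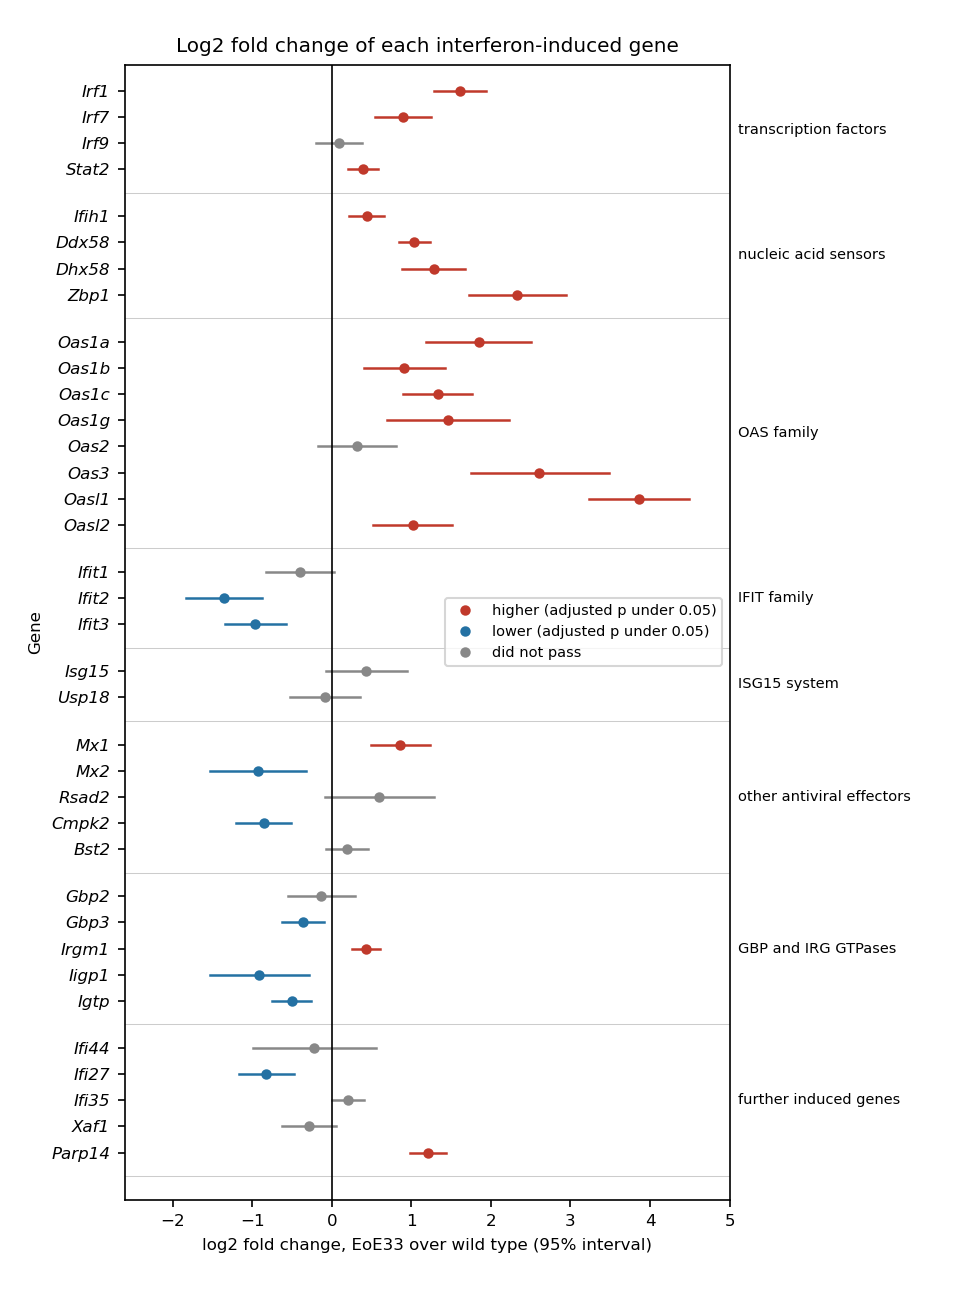
Log2 fold change of EoE33 over wild type for each of the 36 genes, by role, with 95% intervals from the edgeR fit (4 libraries a group). Red points were higher and blue points lower at an adjusted p under 0.05, and grey points did not pass. The OAS family reaches 3.86 at Oasl1, and the IFIT family lies below 0.

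Paralogs or partners were also compared with each other within a library, for 14 pairs of members, by the log2 ratio of CPM + 0.5. The added 0.5 makes the ratio depend on library scaling to some degree and shrinks it for genes of low level such as Mx2. Where such a gene is lower in 1 group, this can also change the difference between the groups. In 9 of the 14 the groups of 4 did not overlap. Each of these had p = 0.0286, the smallest a two-sided exact permutation test of 4 against 4 can give, and an adjusted p of 0.0444 over the 14. The pairs were chosen with earlier results of these data known, so these p values only describe the separation. Among single genes, the groups did not overlap for 59.5% of all genes tested. The log2 ratio of Oasl1 to Oasl2 was 0.86 ± 0.28 in EoE33 and -1.85 ± 0.34 in wild type (SD, 4 libraries a group), a difference of 2.71. That of Oas3 to Oas2 differed by 1.92 and that of Mx1 to Mx2 by 1.29. The ratio of Cmpk2 to Rsad2 differed by -1.2 and that of Igtp to Irgm1 by -0.89.

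Smaller differences were found for Irf7 to Irf9 (0.76), Irf7 to Irf1 (-0.76), Oas1a to Oas1g (0.63) and Ddx58 to Ifih1 (0.59). For Irf7 to Irf1 and Oas1a to Oas1g the separation depends on the added 0.5, since ratios of plain CPM overlap between the groups. Oas1a and Oas1g also share sequence, which leaves their counts uncertain. The pairs within the IFIT family did not pass (exact p = 0.0571 for Ifit1 to Ifit2 and 0.0857 for Ifit3 to Ifit2), nor did Irf9 to Stat2, Usp18 to Isg15 and Gbp2 to Gbp3. With a pseudocount of 0.1 only 7 pairs kept non-overlapping groups, which put their adjusted p at 0.0571 and left 0 pairs called.

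**Figure D4:**
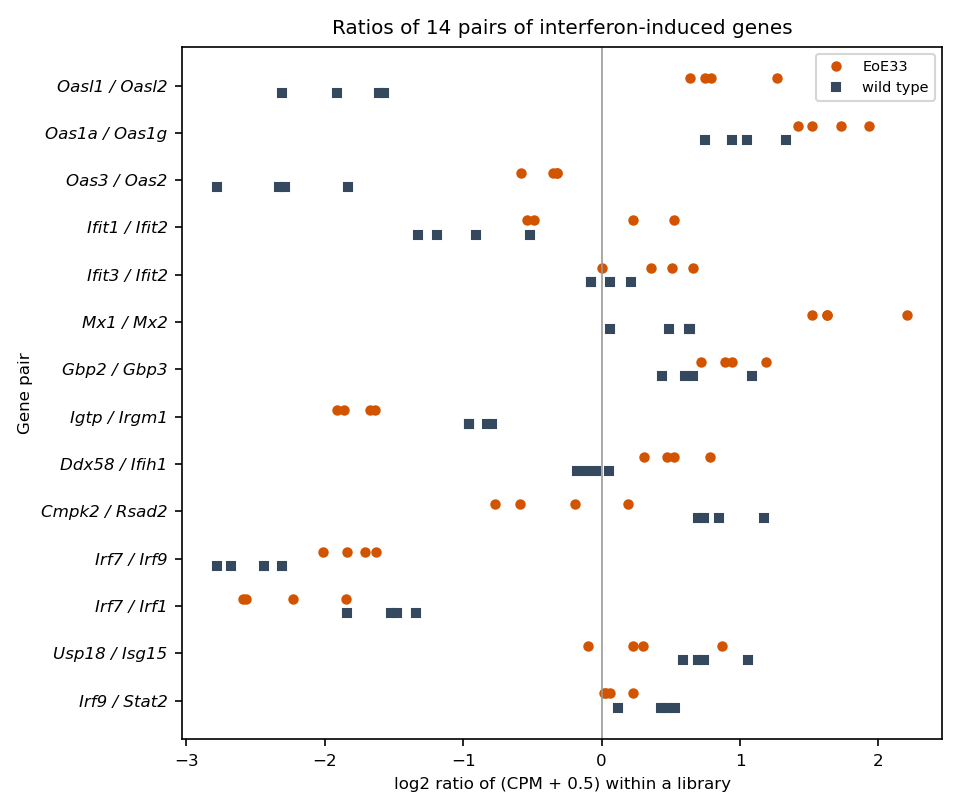
Log2 ratio of CPM + 0.5 between the members of 14 gene pairs, 1 point a library (circles EoE33, above; squares wild type, below). Oasl1 lies above Oasl2 in all EoE33 libraries and below it in all wild type libraries, and Igtp to Irgm1 is lower in EoE33 without overlap.

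The EoE33 libraries were not ranked alike by the 36 genes. EoE33 replicate 4 had the highest value of its group for 18 members and replicate 2 the lowest for 15. Wild type replicate 3 was highest for 18 members and wild type replicate 2 lowest for 24. Over the 35 members with a mean of at least 1 CPM, the median coefficient of variation was 16.5% within EoE33 and 15.7% within wild type. Over 15026 genes above that level it was 12.2% within EoE33 and 9.56% within wild type. The 2 sets were not matched for level, and counting error weighs more on genes of few counts.

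Upstream of these genes, interferon RNA itself was nearly absent. None of the 21 interferon ligand genes had enough counts to be tested. Ifng had 2 counts in all EoE33 libraries together and 3 in all wild type libraries, Ifnb1 had 0 counts in EoE33 and 2 in wild type, and Ifna13, Ifne and Ifnk had 1 count each in EoE33 and 0 in wild type, while Ifnz had 0 in EoE33 and 1 in wild type. The other ligand genes had no count in any library, and a count of 0 in a library allows for up to 3 counts, or 0.127 to 0.176 CPM. Interferon proteins were not measured.

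Both subunits of the interferon gamma receptor were higher. Ifngr1 had 94.8, 127, 111 and 99.1 CPM in EoE33, against 55.3, 49.8, 52.6 and 67.1 CPM in wild type (log2 fold change 0.94 ± 0.12, adjusted p = 0.000123), and Ifngr2 a log2 fold change of 1 ± 0.11 (adjusted p = 5.79e-05). Ifnar1, of the type I receptor, had a log2 fold change of 0.29 ± 0.09 (adjusted p = 0.0155), which did not pass without wild type replicates 1 and 3 (adjusted p = 0.051). Ifnar2 had 20.1, 20, 22.3 and 20.4 CPM in EoE33, against 16.7, 11.5, 15.4 and 19.7 CPM in wild type (log2 fold change 0.39 ± 0.15, adjusted p = 0.0411). That call was lost with unscaled library sizes (adjusted p = 0.0788) and when any 1 of the EoE33 libraries or wild type replicate 1, 2 or 3 was left out (adjusted p from 0.05 to 0.0832). The type III receptor subunits Ifnlr1 (-0.18) and Il10rb (-0.21) did not pass (adjusted p = 0.172 and 0.105), Ifnlr1 passing without EoE33 replicate 2 (adjusted p = 0.0389) and Il10rb without EoE33 replicate 4 (adjusted p = 0.0371).

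Of 9 genes of receptor signalling 7 were higher and 1 lower, against 31.3% of all genes higher and 32.1% lower. The feedback inhibitors Socs1 (log2 fold change 2.99 ± 0.17, adjusted p = 1.62e-06) and Socs3 (2.39 ± 0.2, adjusted p = 1.46e-05) changed most. Socs1 had 12.7, 13.2, 19.2 and 18.6 CPM in EoE33, against 2.16, 2.02, 1.9 and 1.88 CPM in wild type. The kinase Jak2 (1.16 ± 0.13, adjusted p = 6.2e-05) and the phosphatase Ptpn2 (0.74 ± 0.09, adjusted p = 0.000106) were higher too. Many cytokines other than interferon act through these proteins.

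Of 15 genes that sense nucleic acids or relay the signal to interferon genes, 10 were higher and 1, the adaptor Mavs (-0.27 ± 0.07, adjusted p = 0.00689), was lower. Over all genes the shares were 31.3% higher and 32.1% lower. Tmem173, which encodes the DNA-sensing adaptor STING, had 36, 90.6, 61.8 and 50.6 CPM in EoE33, against 4.88, 4.44, 5.84 and 6.34 CPM in wild type, an 11.1-fold rise (log2 fold change 3.47 ± 0.29, adjusted p = 1.99e-05). The kinases of IRF3 and IRF7 were higher by less, Ikbke by a log2 fold change of 0.96 ± 0.07 (adjusted p = 6.68e-06) and Tbk1 by 0.41 ± 0.06 (adjusted p = 0.000261). Myd88, the Toll-like receptor adaptor, overlaps Acaa1a on the opposite strand and had a log2 fold change of 0.76 ± 0.09 (adjusted p = 9.08e-05).

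In a list of 48 further interferon-stimulated genes, 47 could be tested, of which 29 were higher and 4 lower, with a median log2 fold change of 0.69. These counts stand beside 31.3% of all genes higher and 32.1% lower. Ifitm3, an endosomal restriction factor, had 370, 530, 440 and 391 CPM in EoE33, against 83.7, 71.7, 93 and 85.7 CPM in wild type (log2 fold change 2.37 ± 0.13, adjusted p = 1.29e-06). Slfn2 (2.75 ± 0.16, adjusted p = 1.63e-06), Parp9 (1.42 ± 0.09, adjusted p = 2.15e-06) and Parp12 (1.02 ± 0.06, adjusted p = 1.59e-06) were higher too, Parp9 sharing exon sequence with Dtx3l on the opposite strand. The list ran from -2.14 at Ifi27l2a (adjusted p = 0.00242) to 5.94 at Ifitm1 (adjusted p = 9.07e-05), these ends being named for their values.

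In the p200 family of DNA-binding proteins 3 of 11 genes tested were higher and none lower, against 31.3% of all genes higher and 32.1% lower. Ifi209 had 80.4, 94.2, 72.8 and 75.9 CPM in EoE33, against 2.67, 2.28, 3.68 and 4.5 CPM in wild type (log2 fold change 4.62 ± 0.2, adjusted p = 7.09e-07), Ifi204 a log2 fold change of 2.64 ± 0.23 (adjusted p = 1.9e-05) and Aim2 one of 0.8 ± 0.22 (adjusted p = 0.0093). Near-copies share 10% of the windows of Ifi209 and 10.8% of those of Ifi204, so their counts are uncertain. The call of Aim2 was lost without wild type replicates 1 and 3 (0.72, adjusted p = 0.0822).

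Of 13 further GBP and IRG genes 1 was higher, Ifi47 (0.98 ± 0.21, adjusted p = 0.00309), and 3 were lower, with a median log2 fold change of -0.32. Of all genes 31.3% were higher and 32.1% lower. The lower ones were Irgm2 (-0.58 ± 0.1, adjusted p = 0.000911), Gbp6 (-1.42 ± 0.3, adjusted p = 0.00271) and Gbp10 (-0.95 ± 0.34, adjusted p = 0.035). Irgm2 shares 4.39% of its exon bases with Igtp on the same strand. Gbp6 and Gbp10 share 43.4% and 63.2% of their windows with other genes, and the call of Gbp10 was lost under several alternatives. Counted once each over these lists, 103 of 131 pathway genes were tested, 56 were higher and 10 lower, and their median log2 fold change of 0.41 stands beside -0.01 for all genes.

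**Figure D5:**
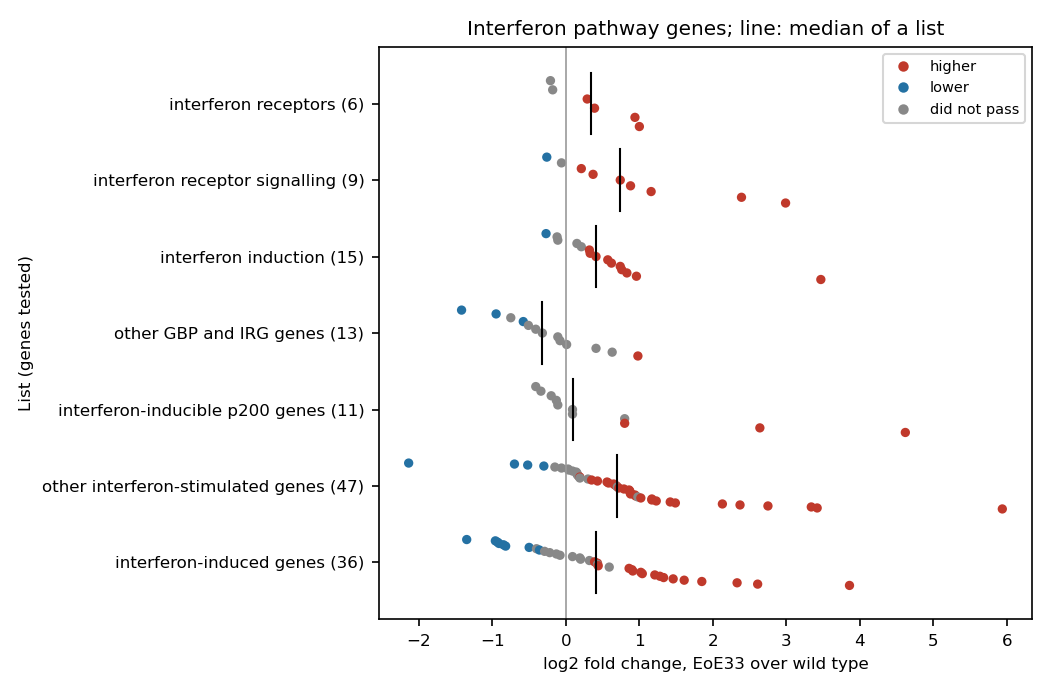
Log2 fold change of EoE33 over wild type for the tested genes of 6 interferon pathway lists and for the 36 members (bottom row), with the number tested in brackets and a line at each median. The other GBP and IRG genes have a median below 0, and receptor signalling and other interferon-stimulated genes have medians above 0.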

How the data were processed

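RNA of whole esophagus from 4 EoE33 and 4 wild type mice was analysed from the raw counts per gene that the authors deposited, 49315 Ensembl identifiers in 8 columns. Columns were assigned to mice by the spreadsheet letter in each sample's description. The submitters' processing notes name Trimmomatic 0.36, STAR 2.5.2b, featureCounts, Subread 1.5.2 and GRCm38 but not what each was used for. Whether counting used strand, and how it handled reads with several matches, is not given there. GENCODE M21 gave symbols, coordinates and exon lengths for 49056 identifiers and none for 259. CPM and TPM were computed here from the deposited counts.

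Genes were filtered with filterByExpr, scaled by TMM and compared by the quasi-likelihood test of edgeR 4.0.16 in R 4.3.3 (robust moderation, genotype as the only term) on the whole table. A gene was called at a Benjamini-Hochberg adjusted p under 0.05. Depth ran from 17.73 to 24.07 in units of 1e6 counts, and floors and intervals of low counts cover counting error only. Within groups no libraries agreed within sampling noise. The labels name no batch. Ratios of gene pairs used exact permutation tests. Alternatives were other scalings, DESeq2 1.42.0, limma 3.58.1 voom, other filters and thresholds, other pseudocounts, the replicate number as a block, and leaving out libraries.

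All 36 members are named, with Il33, the ligands and receptors, and up to 4 genes with the smallest p of each further list, some of which are not reported here. Members, lists, pairs and alternatives were chosen with earlier results of these data known. Mavs, the ends of 1 list and the marker genes were named for their values or their role. Promoter sequences come from RefSeq on GRCm38.p6, and the run of 8 bases in capitals was chosen by counting every such run over the member promoters.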

Additional observations from a re-analysis of the deposited data

Results flagged for a closer look

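Of 130 groups of 4 libraries examined over the named genes, 8 had a library far from the other 3 by Dixon's criterion, which chance gives in about 1 group in 20. Oas1a had 10.3 CPM in EoE33 replicate 4, against 5.85 to 6.35 CPM in the other EoE33 libraries, and 1.01 CPM in wild type replicate 2, against 2.27 to 2.33 CPM in the other wild type libraries. Cmpk2 had 2.28 CPM in EoE33 replicate 2, against 3.2 to 3.25 CPM in the other EoE33 libraries. Parp9 had 57.9 CPM in EoE33 replicate 2, against 47.4 to 47.9 CPM in the other EoE33 libraries. Ifnar2 had 22.3 CPM in EoE33 replicate 3, against 20 to 20.4 CPM in the other EoE33 libraries. Ifit3 had 8.08 CPM in wild type replicate 2, against 9.12 to 9.22 CPM in the other wild type libraries. Ifih1 had 17.4 CPM in wild type replicate 1, against 15.2 to 15.5 CPM in the other wild type libraries. Bst2 had 13.7 CPM in wild type replicate 1, against 9.97 to 10.5 CPM in the other wild type libraries.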

How the results depend on the processing

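All 25 member calls were kept under DESeq2 size factors, upper-quartile scaling, unscaled library sizes, TMM without the counts of Chil4, the DESeq2 test, voom, a fit without robust moderation and a filter of 10 counts in 4 libraries. Without a low-count filter Gbp3 was lost. Leaving out 1 library gave 17 to 19 members higher and 7 or 8 lower, and 9 to 11 pairs without overlap. Without wild type replicates 1 and 3, 16 were higher and 7 lower. At an adjusted p under 0.01, 17 members were higher and 5 lower. With at least 2-fold change, 11 members were higher and 1 lower, 20 pathway genes higher and 2 lower, and 2057 of all genes higher and 2496 lower. With a pseudocount of 0.1, 0 pairs passed. Among members that had not passed, leaving out 1 library gave log2 fold changes from -0.03 to 0.16 for Irf9, from -0.2 to 0.06 for Usp18 (0.01 without EoE33 replicate 4) and from -0.25 to 0.03 for Gbp2, and without wild type replicates 1 and 3 Usp18 was at 0.07 and Ifi44 at 0.05. Over 684 member values 669 kept direction and side of the threshold. The cause of each was not tested. Gbp10 was lost under voom (adjusted p = 0.0654), without a filter (0.0536), and without EoE33 replicate 1 or 3 or wild type replicate 1, 2 or 4 (up to 0.0991). Same-numbered libraries did not deviate together (correlations 0.104, -0.122, 0.056 and -0.136 for replicates 1 to 4, and 1 of the 4 correlated best with its own number), so the numbers were not taken as pairs. With the replicate number as a block, 17 members were higher and 8 lower, 54 pathway genes were higher and 9 lower, and of all genes 4936 were higher and 5120 lower. Low members such as Mx2, Ifi44 and Oas1g rest on few counts, which widens their intervals.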
